A study of Mus musculus with 13 samples.

Results

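The MYC and MAX network genes Mycl, Myc, Max, Mxd1, Mxd4, Mxi1, Mnt and Mga were taken by symbol from the deposited table of adipocyte RNA, and all 8 were among its 11761 rows. They were chosen by their role in the network and selected on their HFD and chow values in these same libraries, so their differences between diets are given as a description and not as a test. The RNA came from epididymal white fat of Adipoq-NuTRAP mice on the C57BL/6J background that were fed a high-fat diet (HFD) or chow for 10 weeks, with 3 libraries per diet. In this model a Cre recombinase under the adiponectin promoter switches on a reporter that tags ribosomes and nuclei, so that RNA bound to adipocyte ribosomes can be pulled down through the GFP tag. All mice of both diets carried the reporter. The labels used here give no age or sex and do not say whether a library is 1 animal or a pool, so the spread between libraries may be technical. The 7 chromatin samples of the series were not analysed here.

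MYC proteins are transcription factors that bind DNA as a pair with MAX, through a basic helix-loop-helix leucine zipper, at E-box sequences, and there they raise the transcription of genes for ribosome building, nucleotide synthesis and growth. MXD proteins, MXI1, MNT and MGA bind MAX at the same sequences and recruit repressor complexes, so they oppose MYC. In fat, MYC is known from cultured cells for its part in the early divisions that precede adipocyte differentiation, and mature adipocytes do not divide.

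The promoters of the members are shown to place the E-box, the sequence through which the network acts on its targets and on its own genes. RefSeq start sites on GRCm38.p6 gave a promoter for 7 of the 8 members, each window running from 250 bases before to 50 bases after the start. The canonical E-box CACGTG, which reads the same on both strands, was found in the windows of Max, Mxd4 and Mnt, and 7.15% of all 32851 such mouse windows and 10.1% of the 11188 windows of listed genes held it. Mycl, the member with the largest difference between diets, had no CACGTG in its window but had CACGCG, a variant with 1 changed base, which with its reverse complement CGCGTG was present in 9.27% of all windows and 17.2% of the windows of listed genes. Its first base lay at -20 relative to the start, and Mga held the same variant at -21 on the other strand. Both windows lie inside the annotated gene spans, so their starts are not the outermost ones. The span of Mycl begins at 122995588 and its window at 122995681, and that of Mga at 119872503 with its window at 119896978. The starts of Max and Mnt also lie inside their spans, although their windows reach beyond them. The span of Mnt begins at 74830806, and that of Max, on the minus strand, ends at 76962323. Of the windows printed here, only that of Mxd4 has its start at the outer end of the span, 34187710. The other variant searched, CACATG with its reverse complement CATGTG, was present in 14.2% of all windows, in 8.33% of those of listed genes and, among the members, in 1 of the 3 windows of Mxi1. The windows of Mycl (chr4:122995681-122995980, plus strand), Max (chr12:76962199-76962498, minus strand), Mxd4 (chr5:34187661-34187960, minus strand) and Mnt (chr11:74830674-74830973, plus strand) are printed 5′ to 3′ on the strand of the gene, with the matched motifs in capitals. The motif of Max spanned the start used for its window, with its first base at -3. Those of Mnt and Mxd4 began at -123 and -219 from the starts used for theirs. A match is a run of letters and not a shown binding site.
Mycl: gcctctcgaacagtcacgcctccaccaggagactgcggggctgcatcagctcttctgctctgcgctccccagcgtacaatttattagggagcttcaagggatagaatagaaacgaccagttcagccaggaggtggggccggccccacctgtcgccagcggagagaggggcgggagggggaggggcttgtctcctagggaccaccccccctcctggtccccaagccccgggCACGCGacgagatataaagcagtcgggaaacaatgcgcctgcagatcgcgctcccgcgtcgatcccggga
Max: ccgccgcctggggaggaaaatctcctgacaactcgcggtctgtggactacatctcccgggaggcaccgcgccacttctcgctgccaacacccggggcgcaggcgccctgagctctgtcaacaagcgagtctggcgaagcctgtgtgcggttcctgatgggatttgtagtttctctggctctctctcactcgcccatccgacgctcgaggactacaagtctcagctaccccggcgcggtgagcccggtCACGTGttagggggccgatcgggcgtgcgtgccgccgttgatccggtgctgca
Mxd4: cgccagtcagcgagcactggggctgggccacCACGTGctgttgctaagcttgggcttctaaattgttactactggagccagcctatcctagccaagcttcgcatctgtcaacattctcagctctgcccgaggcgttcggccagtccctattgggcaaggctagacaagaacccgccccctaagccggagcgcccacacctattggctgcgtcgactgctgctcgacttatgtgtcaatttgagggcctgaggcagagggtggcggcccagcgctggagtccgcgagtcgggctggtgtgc
Mnt: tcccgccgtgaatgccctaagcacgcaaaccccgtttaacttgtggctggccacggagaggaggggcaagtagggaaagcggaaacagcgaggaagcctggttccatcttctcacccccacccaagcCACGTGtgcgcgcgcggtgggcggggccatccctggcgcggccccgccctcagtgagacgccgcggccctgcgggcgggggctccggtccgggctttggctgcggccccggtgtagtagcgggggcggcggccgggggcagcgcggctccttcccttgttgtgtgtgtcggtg

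Depth and purity of the libraries bear on every value below. Steps between low values gave effective library sizes of 31980000 to 39400000 reads in HFD and of 7430000 to 32470000 reads in chow, with chow replicate 3 the shallowest by far. Levels are given as CPM, the reads of a gene scaled to the effective size of its library, and 1 read was worth 0.1346 CPM in that library and between 0.0254 and 0.0431 CPM elsewhere. The adipocyte markers Plin1 (a lipid droplet coat protein) and Adipoq (adiponectin, whose promoter drives the Cre) stood at 1549 ± 131 and 1477 ± 150 CPM in HFD and at 2277 ± 170 and 2260 ± 418 CPM in chow (SD, n = 3 each). Markers are counted as higher or lower where the fit across all genes called them (limma, Benjamini-Hochberg adjusted p under 0.05). That fit called 19.1% of all tested genes higher and 16.0% lower. Of 21 adipocyte markers 3 were higher and 10 lower in HFD, with sums of 31014 to 35170 CPM in HFD and 35228 to 54840 CPM in chow. Markers of other cells of fat moved with diet. Of 17 macrophage markers 14 were higher and 1 lower in HFD, with a summed level of 515 to 701 CPM in HFD and 218 to 257 CPM in chow. Of 12 endothelial markers 11 were higher (sums of 176 to 351 CPM in HFD and 36.3 to 99.8 CPM in chow), of 8 smooth muscle markers 7 (1490 to 1881 and 1055 to 1187 CPM), of 14 fibroblast markers 7 higher and 1 lower (2290 to 4448 and 2498 to 3788 CPM), and of 9 mesothelial markers 4 (54.4 to 163 and 23.7 to 36.2 CPM). Of 12 markers of dividing cells 4 were listed and all 4 were higher (103 to 137 CPM in HFD and 46.4 to 55.5 CPM in chow). Of 9 neutrophil and mast cell markers 2 were tested and both were higher (16.4 to 31.3 CPM in HFD and 2.60 to 5.86 CPM in chow), and of 14 lymphocyte markers 12 were not among the listed genes. Adgre1 and Cd68 (macrophages), Pecam1 (endothelium), Col1a1 (fibroblasts) and Mki67 (dividing cells) averaged 31.2, 7.09, 30, 799 and 20.3 CPM in HFD and 3.55, 0.915, 5.24, 155 and 1.06 CPM in chow. The part of these cells in the results below was not tested. In a pulldown from bulk tissue, fewer cells of a type and less RNA per cell cannot be told apart.

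Mycl, which encodes the MYC family member L-MYC, showed by far the largest difference of the network. It stood at 3.03, 3.05 and 3.25 CPM in HFD replicates 1, 2 and 3, against 53.4, 88.6 and 154 CPM in chow replicates 1, 2 and 3. All HFD libraries lay far below all chow libraries, and the HFD mean of 3.11 ± 0.12 CPM was 3.15% of the chow mean of 98.8 ± 51.2 CPM (SD, n = 3 each). The difference, on the log2(CPM + 1) scale and HFD minus chow, was -4.47 (SE 0.32), the 5th lowest of the 11643 genes tested (those averaging 1 CPM or more). It ranged from -4.86 to -3.56 over all 16 alternative settings and was -4.09 without the shallow chow replicate 3. Counting error was small beside this difference, since Mycl had 102, 97 and 128 reads in HFD and 1240, 2878 and 1147 reads in chow, as recovered from the deposited values.

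The diets also differed in how much Mycl varied between libraries. In HFD the highest library was 1.07 times the lowest, and the exact 95% Poisson intervals of 2.47 to 3.67, 2.46 to 3.70 and 2.71 to 3.86 CPM overlapped. In chow the highest was 2.89 times the lowest, with intervals of 50.5 to 56.5, 85.4 to 91.9 and 146 to 164 CPM. The chow libraries therefore differed among themselves by more than counting error, and the HFD libraries did not. These intervals cover counting error only. The SD of Mycl over the chow libraries, 0.76 on the log2(CPM + 1) scale, was above that of 97.4% of all tested genes. Its SD over the HFD libraries, 0.04, was above that of 4.89%. The medians over all tested genes were 0.22 in chow and 0.16 in HFD. The added 1 shrinks the SD of a gene as low as Mycl was in HFD. With HFD values this close beside their counting intervals, the rank of 4.89% does not measure how stable Mycl was.

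Myc, which encodes the founding member c-MYC, was low in both diets and lower in HFD. It stood at 3.61, 2.07 and 2.95 CPM in HFD and at 8.28, 6.06 and 5.82 CPM in chow (replicates 1, 2 and 3 of each). The diets did not overlap, and the HFD mean of 2.87 ± 0.77 CPM was 42.8% of the chow mean of 6.72 ± 1.36 CPM. The difference was -1.0 (SE 0.25) on the log2(CPM + 1) scale, and -1.24 on the deposited log2 scale, since the added 1 shrinks the difference of a gene this low. Myc rested on few reads, 121, 66 and 116 in HFD and 192, 197 and 43 in chow. Even so, the Poisson intervals of the highest HFD library (2.98 to 4.29 CPM) and of the lowest chow library (4.19 to 7.80 CPM) overlapped only slightly.

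The 2 paralogs did not keep their proportion. The CPM of Mycl divided by that of Myc was 0.841, 1.47 and 1.10 in the HFD libraries, against 6.45, 14.6 and 26.5 in the chow libraries. These are ratios of CPM, not corrected for transcript length, so they compare libraries and not the levels of the genes. The CPM of the paralogs were near parity in every HFD library, and that of Mycl was several times higher in every chow library. Mycn, which encodes the third paralog N-MYC, was not among the listed genes.

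**Figure D1:**
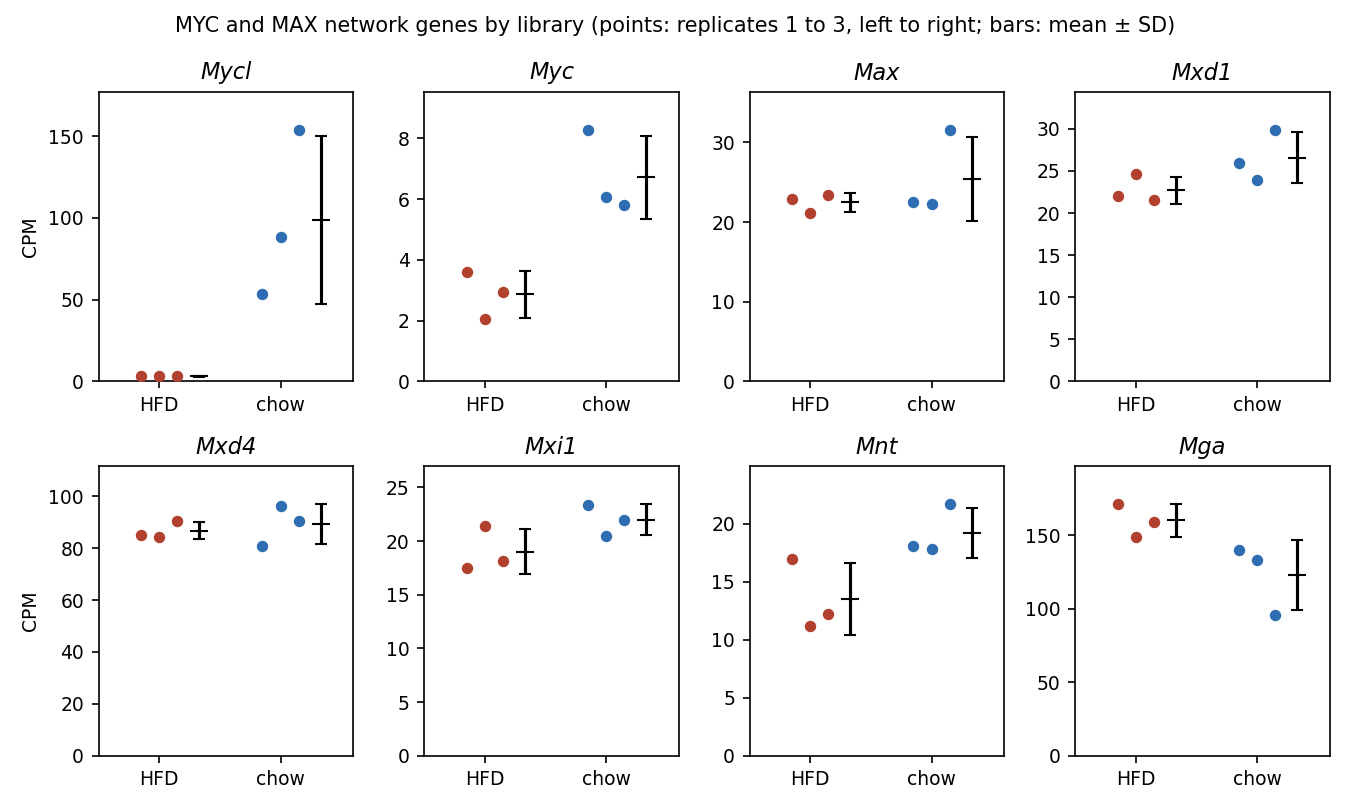
Expression of the 8 members in each library, in CPM on a linear axis from 0, with HFD (red) left of chow (blue); points are replicates 1 to 3 from left to right within each diet and black bars are mean ± SD (n = 3). Mycl lies at 3.03 to 3.25 CPM in HFD and 53.4 to 154 CPM in chow, Myc, Mnt and Mga also show no overlap between diets, and the other members overlap.

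Max encodes the partner that the MYC proteins share with their opponents. It stood at 22.9, 21.1 and 23.4 CPM in HFD and at 22.5, 22.3 and 31.6 CPM in chow. Of the chow libraries only the shallow replicate 3 stood above all of HFD, and the diets overlapped. The difference was -0.15 (SE 0.17), and 0.0048 without chow replicate 3.

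Among the repressors that pair with MAX, the MXD branch varied little. Mxd1, a repressor induced in many cells as they leave the cell cycle, stood at 22, 24.6 and 21.6 CPM in HFD and 26.0, 23.9 and 29.9 CPM in chow, a difference of -0.21 (SE 0.15). Mxi1, also known as Mxd2, stood at 17.5, 21.4 and 18.1 CPM in HFD and 23.4, 20.5 and 22 CPM in chow, a difference of -0.20 (SE 0.15). Mxd4 stood at 85.0, 84.4 and 90.5 CPM in HFD and 81.0, 96.3 and 90.5 CPM in chow, a difference of -0.04 (SE 0.12). The diets overlapped for all 3. Mxd3 was not among the listed genes.

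Mnt encodes the repressor found in most cell types, and it leaned the way of Myc, with less separation. It stood at 17.0, 11.2 and 12.2 CPM in HFD and 18.1, 17.8 and 21.7 CPM in chow. The diets did not overlap, but HFD replicate 1 lay just below the lowest chow library. The difference was -0.50 (SE 0.19), and -0.67 without HFD replicate 1. Mga, a very large protein that joins a MAX-binding domain to a T-box and serves a Polycomb repressor complex (PRC1.6), was the only member with a higher mean in HFD. It stood at 171, 149 and 159 CPM in HFD and 140, 133 and 95.7 CPM in chow, with no overlap. The difference was 0.39 (SE 0.16), and 0.23 without chow replicate 3, its lowest library.

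Read across the network, 7 of the 8 means were lower in HFD, with a median difference of -0.20 against -0.004 for all tested genes, whose quartiles were -0.34 and 0.41. The fit across all genes (limma, Benjamini-Hochberg adjusted p under 0.05) called 2 members, Mycl and Myc, both lower; it called 35.1% of all tested genes, 19.1% higher and 16.0% lower. The diets did not overlap for 4 members, 3 lower and 1 higher in HFD, as for 50.2% of all tested genes, 25.2% higher and 25.0% lower. No reading is drawn from these shares, since the members were proposed on this contrast. The lower means of Max, Mxd1, Mxd4 and Mxi1 did not survive scaling each library to its median adipocyte marker, which gave differences of 0.15, 0.09, 0.28 and 0.10. That scaling moved the median of all genes to 0.30, so those members then lay below the median of all genes. Under it Mycl was -4.19, Myc -0.75 and no longer called, Mnt -0.20, and Mga 0.71 and called.

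**Figure D2:**
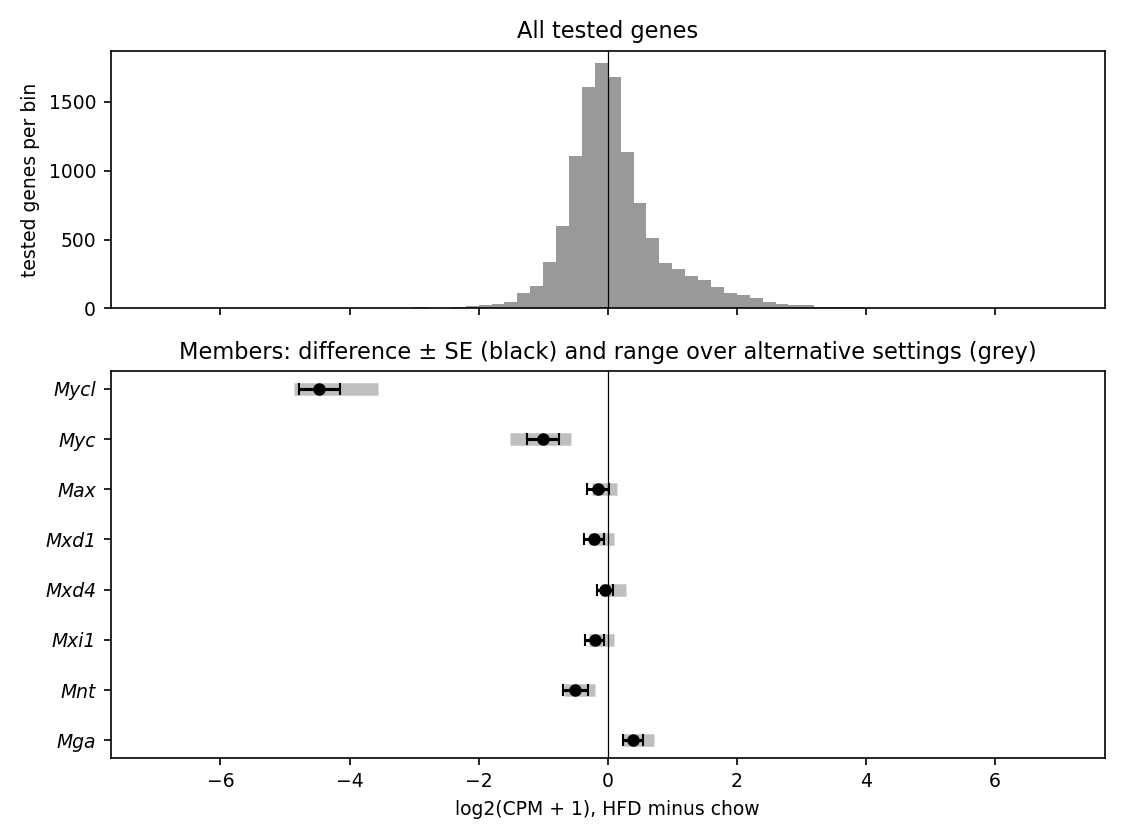
Top, histogram of the differences of all 11643 tested genes; bottom, the 8 members with the difference ± SE in black and the range over the alternative settings in grey, all as log2(CPM + 1), HFD minus chow. Mycl, at -4.47, lies in the far lower tail, Myc at -1.0, and the other members lie between -0.50 and 0.39.

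The pattern of Mycl over the 6 libraries was compared with that of 9781 other genes that averaged 5 CPM or more, predicted genes left out, by the root mean square difference of log2(CPM + 1) values centred on each gene. The values were not scaled, so this distance mostly follows the size of the diet difference. A gene with little diet difference therefore lies away from Mycl or Myc by construction, as the median gene does. The nearest were Fam13a, a gene of a fat-distribution locus (0.522), Gpx3, a secreted glutathione peroxidase (0.539), and Angpt1, the vessel-stabilising ligand angiopoietin-1 (0.660), where the median gene was at 2.27. They averaged 49, 33.2 and 2.81 CPM in HFD and 644, 506 and 95.7 CPM in chow, with diet differences of -3.62, -3.91 and -4.68. Within chow none of them kept the order of Mycl, which rose from replicate 1 to replicate 3. Fam13a stood at 541, 455 and 936 CPM and Gpx3 at 501, 449 and 568 CPM in chow replicates 1, 2 and 3. Both were highest in replicate 3, as Mycl was, but lowest in replicate 2. Angpt1 stood at 94.4, 124 and 69.1 CPM, with its lowest in replicate 3. Nearest to Myc were Nrbp2, a pseudokinase gene (0.048), Acad10, of the acyl-CoA dehydrogenase family (0.109), and Vgll4, a partner of TEAD factors (0.110), with differences of -1.0, -1.09 and -0.85, where the median gene was at 0.57.

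The members lie on 8 different chromosomes, and none overlaps another listed gene on GRCm38.p6, so their reads are not shared with one. Mxd1, Mxi1 and Mga overlap predicted genes that are not listed, and the reads do not keep strand, so reads of such a partner cannot be told apart from theirs. Mycl lies on chromosome 4 at 122995588 to 123002490. The next listed gene after it, Trit1, which encodes a transfer RNA modifying enzyme, begins 14054 bases further on and was also lower, with 34.3, 26.0 and 30.1 CPM in HFD against 99.7, 61.0 and 116 CPM in chow. The difference was -1.54 (SE 0.23, limma adjusted p 0.000922), and all HFD libraries lay below all chow libraries. The listed gene before Mycl, Cap1, an actin regulator 109512 bases away, was higher, with 173 ± 17.2 CPM in HFD and 112 ± 16.5 CPM in chow (difference 0.63, SE 0.14, limma adjusted p 0.00887). The neighbours of Mycl thus differed in opposite directions.

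Neighbours of the other members are named after their values were seen. Of the 14 listed genes on either side of the other 7 members, 4 were called higher, 1 lower and 9 not at all. Over all tested genes 35.1% were called, 19.1% higher and 16.0% lower. The neighbours not called had differences from -0.42 to 0.32. Pvt1, the long non-coding RNA gene 47625 bases beyond Myc, averaged 8.27 ± 1.78 CPM in HFD and 3.49 ± 0.493 CPM in chow, a difference of 1.04 (SE 0.22, limma adjusted p 0.00662). It was higher where Myc was lower. So was 9930014A18Rik, the listed gene on the other side of Myc but 1153941 bases away (0.93, SE 0.31, limma adjusted p 0.0413). Both listed neighbours of Mxd4 were higher in HFD, Poln, a DNA polymerase gene, by 1.46 (SE 0.17, limma adjusted p 0.000218) and Zfyve28 by 3.06 (SE 0.21, limma adjusted p 1.8e-05). Zfyve28 averaged 30.7 ± 5.70 CPM in HFD and 2.81 ± 0.698 CPM in chow, 7183 bases from Mxd4, whose own libraries overlapped between diets. Sgsm2, beside Mnt, was lower by 1.06 on the log2(CPM + 1) scale (-1.06, SE 0.17, limma adjusted p 0.00155).

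**Figure D3:**
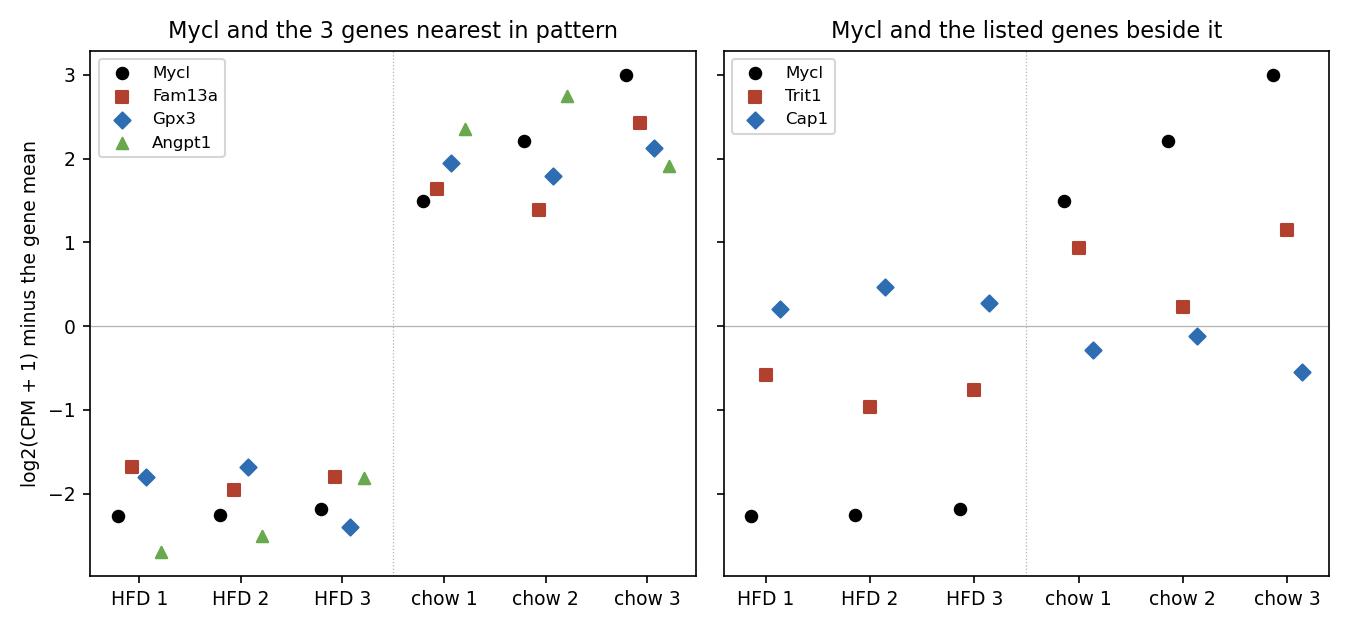
Values of log2(CPM + 1) centred on each gene's mean over the 6 libraries, for Mycl with the 3 genes nearest to it in pattern (left) and with the listed genes on either side of it (right); HFD libraries are left of chow libraries. Mycl is black, Trit1 shares its direction and Cap1 does not.

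Around the members, 9 lists held the rest of the pathway, 179 genes in all, of which 161 were tested with limma, with Benjamini-Hochberg adjustment over all 11643 genes. Of these, 26 were called higher and 29 lower in HFD, together 34.2%, close to the 35.1% called over all tested genes. Without HFD replicate 2 the counts were 14 and 18, without HFD replicate 3 they were 14 and 14, and with scaling to the median adipocyte marker they were 28 and 7. The lists were written with earlier results of these data known.

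The MLX branch is the sister network, in which MLX replaces MAX and its partners sense glucose. Of its 5 genes 2 rose and 1 fell, where 19.1% of all tested genes were higher and 16.0% lower. Arrdc4 rose (26.8 ± 8.41 CPM in HFD, 7.56 ± 0.34 CPM in chow, difference 1.66, SE 0.22, limma adjusted p 0.000479), and Txnip fell (760 ± 60.7 CPM in HFD, 2049 ± 248 CPM in chow, difference -1.43, SE 0.15, limma adjusted p 0.000143). Both are arrestin-family genes known as glucose-induced targets of this branch, and they moved in opposite directions. Mlxip, the partner MondoA, differed by 0.45 (SE 0.15, limma adjusted p 0.0473), a call that was lost without chow replicate 2 or 3 (limma adjusted p 0.0702 and 0.0853) and without any 1 of the HFD libraries (limma adjusted p 0.068 to 0.134). The call was also lost with voom weights (limma adjusted p 0.0555).

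Of 13 genes of the SIN3 complex, which MXD proteins and MNT recruit, 4 fell and 0 rose, 30.8% called against 35.1% of all tested genes, with a median difference of -0.35. They included the deacetylase gene Hdac1 (17.2 ± 1.65 CPM in HFD, 26.4 ± 1.12 CPM in chow, difference -0.59, SE 0.14, limma adjusted p 0.0115) and Ing2, a histone mark reader (13.0 ± 1.04 and 22 ± 4.25 CPM, difference -0.70, SE 0.18, limma adjusted p 0.0135). Of 12 genes that work with MGA in PRC1.6, 3 fell and 0 rose, 25.0% called, with a median of -0.25. Over all tested genes 16.0% were lower and 19.1% higher. Cbx3, a heterochromatin protein (10.4 ± 0.902 CPM in HFD, 22.4 ± 6.92 CPM in chow, difference -1.0, SE 0.22, limma adjusted p 0.00701), and Wdr5, a scaffold of chromatin complexes (27.9 ± 1.19 and 43.0 ± 5.78 CPM, difference -0.60, SE 0.14, limma adjusted p 0.0105), were the largest. Reads of Cbx3 are uncertain, since it has near-identical copies. Mga itself had its higher mean in HFD beside these lower partners. At an unadjusted limma p under 0.05, 8 SIN3 and 5 PRC1.6 genes were lower and 0 of either list higher, and with voom weights 5 and 3 were called lower and 0 higher. Scaling to the median adipocyte marker left 0 SIN3 genes and 1 PRC1.6 gene called, with medians of -0.04 and 0.06 against 0.30 for all genes. Without HFD replicate 3, 0 SIN3 genes were called, with Hdac1 and Ing2 just short of the threshold (limma adjusted p 0.0531 and 0.051), and 2 of PRC1.6.

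Of 16 genes of cofactors that help MYC act, 1 fell (Wdr5 again) and 0 rose, 6.25% against 35.1% of all tested genes, with a median of -0.07. At an unadjusted limma p under 0.05 the counts were 2 lower and 0 higher, and with voom weights 1 and 0. Of 17 genes that control MYC stability 2 rose and 4 fell, 35.3% called, with a median of -0.06. Bin1, a MYC-binding adaptor, rose (53.0 ± 3.46 CPM in HFD, 34.7 ± 7.01 CPM in chow, difference 0.61, SE 0.16, limma adjusted p 0.0159), while Pim3, a kinase of a family that phosphorylates MYC (144 ± 22.8 and 252 ± 52.9 CPM, difference -0.79, SE 0.18, limma adjusted p 0.00807), and Trim32, a ubiquitin ligase (23.3 ± 1.78 and 36.9 ± 4.6 CPM, difference -0.64, SE 0.15, limma adjusted p 0.00898), fell. The call of Bin1 was lost without HFD replicate 1 or chow replicate 2 (limma adjusted p 0.0566 and 0.0547), and scaling to the median adipocyte marker left 0 of the stability list lower and 3 higher. Without HFD replicate 3 that list had 2 lower and 1 higher, without HFD replicate 2 it had 1 higher, and without HFD replicate 1 or chow replicate 2 it had 0 higher.

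Genes that MYC is known to activate did not move as a block. Of 34 genes of ribosome building 5 rose and 2 fell, 20.6% called against 35.1% of all tested genes, with a median of -0.06. The counts were 1 and 1 without HFD replicate 2, 2 and 1 without HFD replicate 3, and 3 and 2 without chow replicate 1. The fallen pair was Dkc1, which encodes dyskerin of the RNA pseudouridylation complex (27.4 ± 1.73 CPM in HFD, 73.2 ± 12.8 CPM in chow, difference -1.37, SE 0.15, limma adjusted p 0.000191), and Ubtf, a factor of RNA polymerase I (92.3 ± 5.9 and 129 ± 10.0 CPM, difference -0.48, SE 0.12, limma adjusted p 0.0129). Rrp12 and Wdr12, of ribosome subunit assembly, rose by 0.75 (SE 0.14, limma adjusted p 0.00315) and 0.55 (SE 0.15, limma adjusted p 0.0207). The call of Ubtf was lost without HFD replicate 2 or 3 (limma adjusted p 0.0511 and 0.0586) and that of Wdr12 without HFD replicate 2 or 3 or chow replicate 1 or 2 (limma adjusted p 0.0504 to 0.0744). Scaling to the median adipocyte marker also ended the call of Ubtf (difference -0.17, limma adjusted p 0.543). Of 38 genes of metabolism and growth 8 rose and 9 fell, 44.7% called, with a median of -0.05. The counts were 4 and 5 without HFD replicate 2, 3 and 4 without HFD replicate 3, and 9 and 1 with scaling to the median adipocyte marker. E2f1, a cell-cycle factor (20.1 ± 0.863 CPM in HFD, 10.1 ± 3.8 CPM in chow, difference 0.97, SE 0.23, limma adjusted p 0.00987), and the glycolytic enzyme gene Eno1 (113 ± 1.96 and 65.0 ± 5.59 CPM, difference 0.79, SE 0.12, limma adjusted p 0.00104), which has near-identical copies, rose. Tfrc, the transferrin receptor gene (50.8 ± 9.96 and 104 ± 19.3 CPM, difference -1.03, SE 0.19, limma adjusted p 0.00306), and Tfam, a factor of mitochondrial DNA (32.3 ± 1.82 and 56.9 ± 11.1 CPM, difference -0.78, SE 0.16, limma adjusted p 0.00481), fell. CACGTG was present in 23.1% of the promoter windows of the ribosome-building list and 26.7% of those of the metabolism and growth list, against 10.1% of the windows of all listed genes. It was also present in 25.0% of the windows of the genes listed as repressed by MYC and in 3 of the 6 of the MLX branch. The shares were 16.7% for the stability list, 11.8% for the cofactors and 7.69% for PRC1.6. They were 5.0% for the other E-box factors and 0.0% for SIN3. Shares are per window, and a gene can have several, as with 39 windows for 31 genes of ribosome building.

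Of 16 genes listed as repressed by MYC, 7 rose and 4 fell, 68.8% called against 35.1% of all tested genes, with a median of 0.25. The cell-cycle inhibitor gene Cdkn1a stood at 156, 133 and 163 CPM in HFD and 8.69, 7.26 and 8.88 CPM in chow (difference 4.03, SE 0.15, limma adjusted p 1.04e-06), far apart in every library. Its relative Cdkn1b, another inhibitor that MYC represses, went the other way, with 24.2 ± 1.26 CPM in HFD and 61.6 ± 10.0 CPM in chow (difference -1.30, SE 0.15, limma adjusted p 0.00024). Pdgfrb, a growth factor receptor gene that is also a fibroblast and pericyte marker, rose (46.9 ± 10.3 and 7.85 ± 4.25 CPM, difference 2.52, SE 0.30, limma adjusted p 0.000292), and the stress-response gene Ndrg1 fell (27.6 ± 3.53 and 89.7 ± 17.6 CPM, difference -1.65, SE 0.17, limma adjusted p 0.000122). The higher markers of macrophages, endothelium and smooth muscle given above moved with these rises, and their part was not tested.

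Other factors that bind the same E-box went both ways, with 2 of 11 risen and 2 fallen, 36.4% called against 35.1% of all tested genes, and a median of -0.18. The lower count was 0 with equal totals and with scaling to the median adipocyte marker, and 4 with quantile normalization. The clock factor genes Arntl, which encodes BMAL1, and Clock rose. Arntl stood at 13.4, 13.2 and 14.1 CPM in HFD and 7.16, 4.47 and 1.09 CPM in chow (difference 1.68, SE 0.42, limma adjusted p 0.0129). It was far more variable in chow than in HFD. Its lowest value rested on 8 reads in the shallow chow replicate 3, against 166 and 145 reads in chow replicates 1 and 2. Clock differed by 0.58 (SE 0.18, limma adjusted p 0.0323). The lipogenic factor gene Srebf1 stood at 455, 282 and 350 CPM in HFD and 449, 545 and 617 CPM in chow, with HFD replicate 1 above the lowest chow library (difference -0.58, SE 0.19, limma adjusted p 0.0413). Its call was lost with equal totals, quantile normalization and scaling to the median adipocyte marker (limma adjusted p 0.068, 0.0589 and 0.321). Usf1, a general E-box factor, differed by -0.50 (SE 0.15, limma adjusted p 0.0283), and its call was lost with equal totals and with that scaling (limma adjusted p 0.0617 and 0.513). Leaving out single libraries ended the calls of Clock (without HFD replicate 1, 2 or 3), of Srebf1 (without HFD replicate 2 or 3 or chow replicate 2 or 3) and of Usf1 (without any 1 of the same libraries), with limma adjusted p-values of 0.0527 to 0.149.

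**Figure D4:**
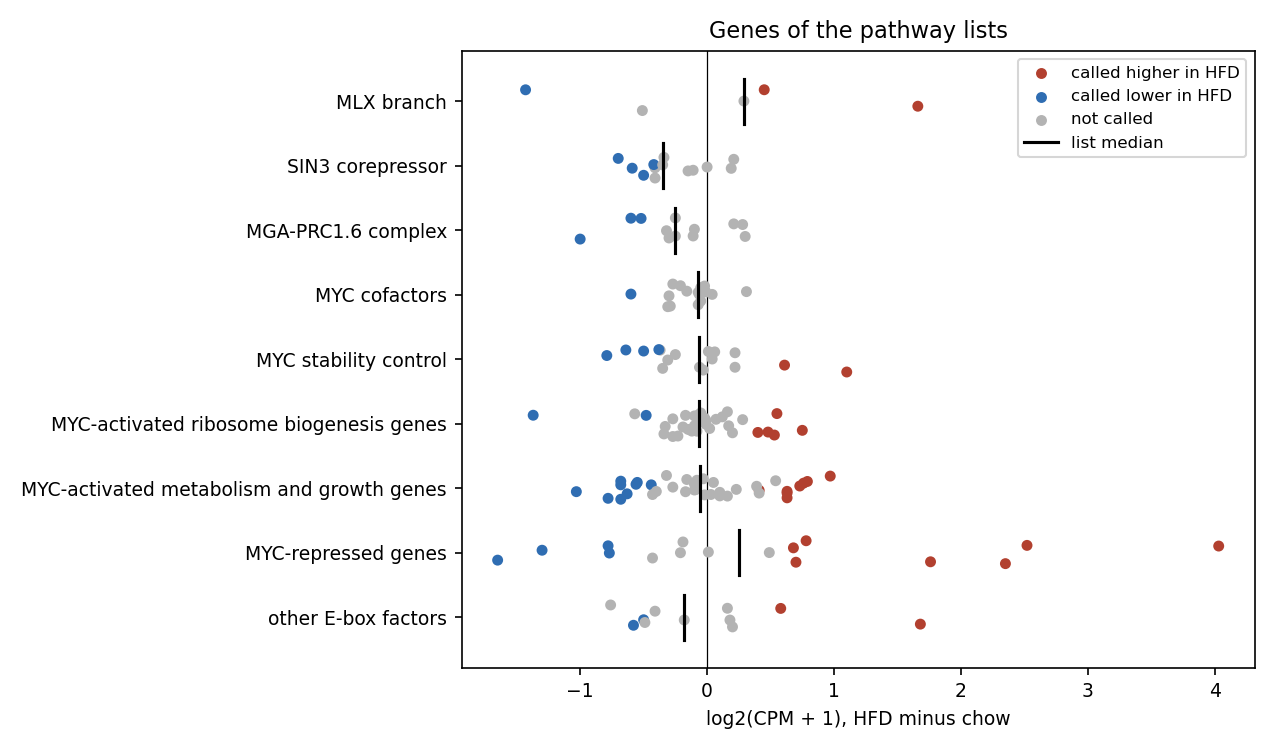
Differences of the tested genes of the 9 pathway lists, as log2(CPM + 1), HFD minus chow; red points were called higher and blue points lower in HFD, grey points were not called, black ticks are list medians and vertical jitter has no meaning. The lists activated by MYC centre near 0, at -0.06 and -0.05, and Cdkn1a, at 4.03, is the far right point.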

How the data were processed

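The series holds 13 samples, of which the 6 RNA libraries were used, grouped by diet from the labels. The deposited values are log2 CPM per gene, rounded by the authors to 2 decimals, with a lowest value of -6.85; the build mm10 and the tools featureCounts, edgeR, HISAT2 and Picard come from the submitters' processing notes, which give no role or version. How the authors filtered low genes is not given in the sources used here. Reads were not kept by strand, since the kit does not mark it, per the labels' protocols.

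CPM were computed as 2 to the power of each value. Reads were recovered from the steps between low values: all values under 20 reads were whole within 0.1 of a read. They are therefore approximate for high genes. The 11643 genes averaging 1 CPM or more were tested on log2(CPM + 1) with limma 3.58.1 in R 4.3.3 (trend, two-sided, HFD minus chow). Benjamini-Hochberg adjustment was used, with a threshold of 0.05. The fit was also run on simulated data, with the same spread setting for all genes and both diets. That run therefore does not show how the fit performs on these libraries. Where a symbol had several rows, the one with the highest mean was used.

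The members and lists were chosen with earlier results of these data known. Named genes were all members, the 2 highest and 2 lowest called genes per pathway list averaging 5 CPM or more, the listed genes beside Mycl, the 3 genes nearest in pattern to Mycl and to Myc, and 7 markers. Transcript lengths were not at hand, so levels are not ranked between genes. Promoters are from RefSeq, on GRCm38.p6, the assembly that mm10 denotes; CACGCG was added as a motif after the promoters were searched. Replicate numbers were not taken to pair libraries across diets. Alternatives were other pseudocounts (0.1, 5 and none), filters (none and 5 CPM), scalings, voom weights, a replicate block and leaving out each library.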

Additional observations from a re-analysis of the deposited data

How the results depend on the processing

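Over 16 alternatives (15 for Myc, which falls under a mean of 5 CPM) Mycl was called lower in all 16 and Myc in 14. Scaling to the median adipocyte marker gave 1 member called lower, 1 higher (Mga), 7 pathway genes lower, and 2967 genes higher and 500 lower over the whole table, against 2221 and 1863 as reported; a mean of at least 5 CPM left 1 member called lower, by leaving Myc out. The replicate block gave 1 member called higher (Mga) and 4839 called genes against 4084. Same-numbered libraries deviated together with correlations of 0.43, 0.23 and 0.09 across genes. Each HFD library correlated best with the chow library of its own number. Chow replicate 3, though, correlated more with HFD replicate 2 (0.15) than with HFD replicate 3 (0.09). Whether the numbers mark pairs is not settled by these values, and they were not taken as pairs. Differences near 0 changed sign: Max (0.15), Mxd1 (0.09), Mxd4 (0.28) and Mxi1 (0.10) under scaling to the median adipocyte marker, Mxd4 also with equal totals (0.07), with quantile normalization (0.013) and by leaving out single libraries (-0.11 to 0.016, positive without chow replicate 2), and Max by leaving out single libraries (-0.24 to 0.0048, positive without chow replicate 3). Leaving out single libraries gave 1162 to 1740 lower, 1683 to 2102 higher and 2845 to 3788 called genes in all, 2 to 3 members lower and 0 to 1 higher, and 14 to 22 pathway genes higher and 14 to 28 lower. The cause of these shifts was not tested. Mnt was called with quantile normalization (-0.61) and without HFD replicate 1 (-0.67), and Mga without chow replicate 1 (0.50). The lowest depth, 7430000 reads in chow replicate 3, puts 3 reads at 0.404 CPM there, and Myc had 43 reads in that library.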
